A study of Mus musculus with 11 samples.

Results

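The comparison described here is the later stretch of a dexamethasone response in thymic fibroblasts, 4 d against 18 h after injection. Its members are 7 of the 11 libraries of the series: the 4 d group (n = 4) and the 18 h group (n = 3), chosen by their labels. The 4 untreated libraries serve as a baseline. All mice were young males of WT genotype. Those of the 4 d and 18 h groups received 200 ug dexamethasone per 10 g body weight by intraperitoneal injection, and those of the untreated group received nothing. No group was injected with vehicle, so the drug and the injection cannot be told apart. The titles of the 4 d libraries read 3 d, but their column names, time field and the series design give 4 d, the name kept here. The labels do not say whether the replicates are separate mice, so p-values measure the spread between these libraries, which may be in part technical.

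Dexamethasone is a synthetic glucocorticoid that kills immature thymocytes, and the thymus shrinks within days and then regrows. Thymic fibroblasts lie in the capsule and septa of the organ, lay down its collagen and elastic matrix and secrete growth factors for epithelial cells and thymocytes. Interferons act on such cells through receptors whose transcription factors bind the interferon-stimulated response element (ISRE) in the promoters of antiviral genes. The acute-phase genes Saa3 and Lcn2 are a separate programme, driven in many cell types by inflammatory cytokines through NF-kB, C/EBP and STAT3.

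Fibroblasts were sorted from digested thymi, and the sort is labelled CD45-EpCAM+CD34+CD31-PDGFRalpha+. RNA was counted by MARS-seq, a method in which reads come from transcript 3' ends, so scaled counts (CPM) of 1 gene can be compared between libraries. They are scaled to the library total after its adjustment by TMM, a correction for library composition. Library totals ran from 916281 to 3357113 counts in the 4 d group and from 924731 to 2290284 in the 18 h group. The shallowest of each were 4 d replicate 4 and 18 h replicate 2. A gene with no count there could still lie at 3.74 or 3.65 CPM (the level of 3 counts, counting error only). The positive sort markers were present: Pdgfra averaged 100.5 ± 45.03 CPM in 4 d libraries and 65.7 ± 13.9 CPM in 18 h libraries (SD), and Cd34 1091 ± 149.9 and 669.7 ± 176 CPM. Epcam, the epithelial antigen for which the label gives a positive gate, was at 2.502 ± 2.15 CPM at 4 d and 2.96 ± 1.79 CPM at 18 h, near that limit. Ptprc, which encodes CD45, was at 0, 1.42, 3 and 3.74 CPM at 4 d, against 15.99, 6.08 and 14.3 CPM at 18 h. In bulk libraries, fewer cells of a type and less RNA per cell cannot be told apart.

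Of 12430 genes in the table, 10067 had enough counts to be tested. At 4 d, 171 genes (1.7% of those tested) were higher and 384 (3.81%) lower than at 18 h, with edgeR's quasi-likelihood test and Benjamini-Hochberg adjustment over all genes tested (adjusted p below 0.05, the call used throughout). Differences of at least 4-fold made up 44 of the higher and 187 of the lower calls. The falls were led by acute-phase and interferon-induced genes, and the rises included genes of elastic fibres, collagens and imprinted growth control. Set against untreated libraries, the 4 d libraries had 250 genes higher (2.48%) and 83 lower (0.824%). Both comparisons use the same 4 d libraries, so their values are given side by side and not as independent tests. Without 18 h replicate 1, the calls against 18 h came to 45 higher and 196 lower genes, and without 18 h replicate 3 to 346 higher and 461 lower. The higher calls also came to 88 without 4 d replicate 3 and to 107 without 4 d replicate 4, and the lower calls to 227 without 4 d replicate 1. Against untreated, the higher calls came to 440 without 18 h replicate 2, and to 102 and 160 without 4 d replicates 3 and 4. They came to 125, 86 and 105 without untreated replicates 2, 3 and 4. The lower calls came to 177 without 18 h replicate 2, to between 27 and 45 without any 1 of the 4 d libraries, and to between 27 and 30 without untreated replicate 2, 3 or 4.

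On the first principal component of 5273 well-measured genes, which carried 39.1% of the variance, the 4 d libraries lay between -10.4 and -3.4. The 18 h libraries lay between 17.0 and 64.9, and the untreated libraries between -31.2 and -3.6. Along that axis the 4 d and untreated ranges overlapped and the 18 h range stood apart. The second component (23.1%) placed 4 d libraries between 7.7 and 39.4 and untreated libraries between -29.9 and -10.8, with no overlap. The 18 h libraries lay between -20.4 and 13 on it, a range that overlaps both of these. Of the 4 d group, replicates 1 and 2 lay at 7.7, replicate 3 at 39.4 and replicate 4 at 24.8. The median absolute log2 difference between a 4 d and an 18 h library was 0.472 (12 pairs), against 0.332 between 2 libraries of the 4 d group (6 pairs) and 0.558 between 2 libraries of the 18 h group (3 pairs). Replicates 1 and 3 of the 18 h group differed by 0.291. The pairs with 18 h replicate 2, the shallowest of its group, differed by 0.558 and 0.632. That library also held the value of 64.9 on the first component, and it differed from the 4 d libraries by 0.657 to 0.765.

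**Figure D1:**
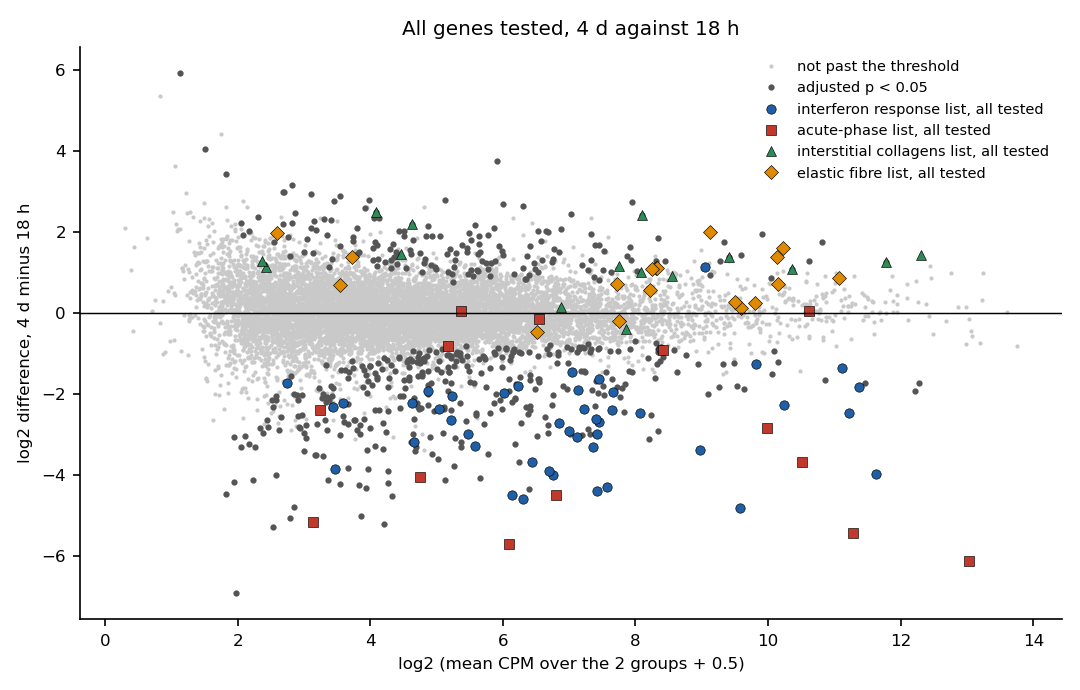
Log2 difference between 4 d and 18 h (vertical) against the mean level of both groups (horizontal, log2 CPM) for the 10067 genes tested. Black points passed the threshold, and coloured symbols show every tested member of 4 gene lists, with interferon and acute-phase members mostly below the zero line and collagen and elastic fibre members mostly above it.

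The acute-phase genes had the lowest median of the 48 lists. The lists were chosen with earlier results of these data known, so this rank describes them and is not a test. Of 14 tested members of the acute-phase list, 9 were lower at 4 d, none was higher, and the median log2 difference was -3.25, against 0.00 over all genes tested. Saa3, an acute-phase serum amyloid A made outside the liver (GRCm38 chr7:46711998-46715700), had 190.3, 215, 286 and 274 CPM at 4 d, against 17170, 22970 and 9518 CPM at 18 h. All 4 d values lay far below all 18 h values, a log2 difference of -6.10 ± 0.34 (SE; adjusted p = 2.78e-07). Lcn2, which encodes the iron-siderophore binder lipocalin 2 (chr2:32384633-32388252), had 111, 104, 134 and 107 CPM at 4 d and 2622, 8031 and 3952 CPM at 18 h. Its log2 difference was -5.41 ± 0.42 (adjusted p = 4.76e-06), with the 4 d libraries close together and the 18 h libraries more spread.

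Lrg1, a secreted leucine-rich glycoprotein, had 1.82, 2.83, 4.001 and 0 CPM at 4 d, against 159.9, 26.7 and 215 CPM at 18 h (-5.69 ± 0.64; adjusted p = 0.000118). Serpina3n, a serine protease inhibitor, had 134, 142, 318 and 253 CPM at 4 d, against 2400, 4003 and 1685 CPM at 18 h (-3.67 ± 0.37; adjusted p = 4.82e-05). Il1rn, the interleukin 1 receptor antagonist, had a count in 1 of the 4 libraries at 4 d (0, 0, 1.33 and 0 CPM) and in all of them at 18 h (14.9, 7.29 and 26.7 CPM; adjusted p = 0.00138). None of these genes had overlapping groups, which a rule that chose each of them required. Lrg1 and Il1rn had 25 and 4 counts over the 4 d libraries, against 772 and 90 over the 18 h libraries. They reached the mean count of 10 through the 18 h group, and the size of their falls is uncertain. Saa1 and Saa2 also fell (-4.47 and -4.03), but they are near copies of each other, so their separate values are uncertain.

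Levels relative to untreated differed within the acute-phase list. Saa3 and Lcn2 at 4 d were above every untreated library, which had 130.5, 109, 91.3 and 124 CPM of Saa3 and 39.4, 40.9, 54.2 and 18.2 CPM of Lcn2. The log2 differences were 1.09 ± 0.27 (adjusted p = 0.0431) and 1.58 ± 0.36 (adjusted p = 0.0286). The Saa3 call was lost without any 1 library other than 18 h replicates 2 and 3 (adjusted p 0.051 to 0.152). The Lcn2 call was lost without 4 d replicate 1, 3 or 4 or untreated replicate 2 or 4 (0.0545 to 0.0811). Hp, haptoglobin, had 261, 355, 128 and 258 CPM at 4 d and 618, 3918 and 772 CPM at 18 h, a fall (-2.82 ± 0.55; adjusted p = 0.00779) that left it 2.93 ± 0.55 above untreated on the log2 scale (adjusted p = 0.012). The fall of Hp was lost without both of the shallowest libraries (0.0673), and 18 h replicate 2 held its highest value. Ptx3, which encodes the soluble pattern recognition receptor pentraxin 3 and was singled out after its values were seen, had 1403, 1029, 2598 and 1360 CPM at 4 d and 1208, 1317 and 2081 CPM at 18 h. Its groups overlapped and the difference of 0.06 ± 0.48 did not pass (adjusted p = 0.959), while untreated libraries had 287, 134, 41.4 and 122 CPM, with a 4 d minus untreated difference of 3.45 ± 0.49 (adjusted p = 0.00393, at most 0.0254 without any 1 library). In all, 5 of the 14 members were above untreated at 4 d. That count came to 3 without 4 d replicate 1, 4 d replicate 4, untreated replicate 2 or untreated replicate 3, and to 2 without 4 d replicate 3 or untreated replicate 4.

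**Figure D2:**
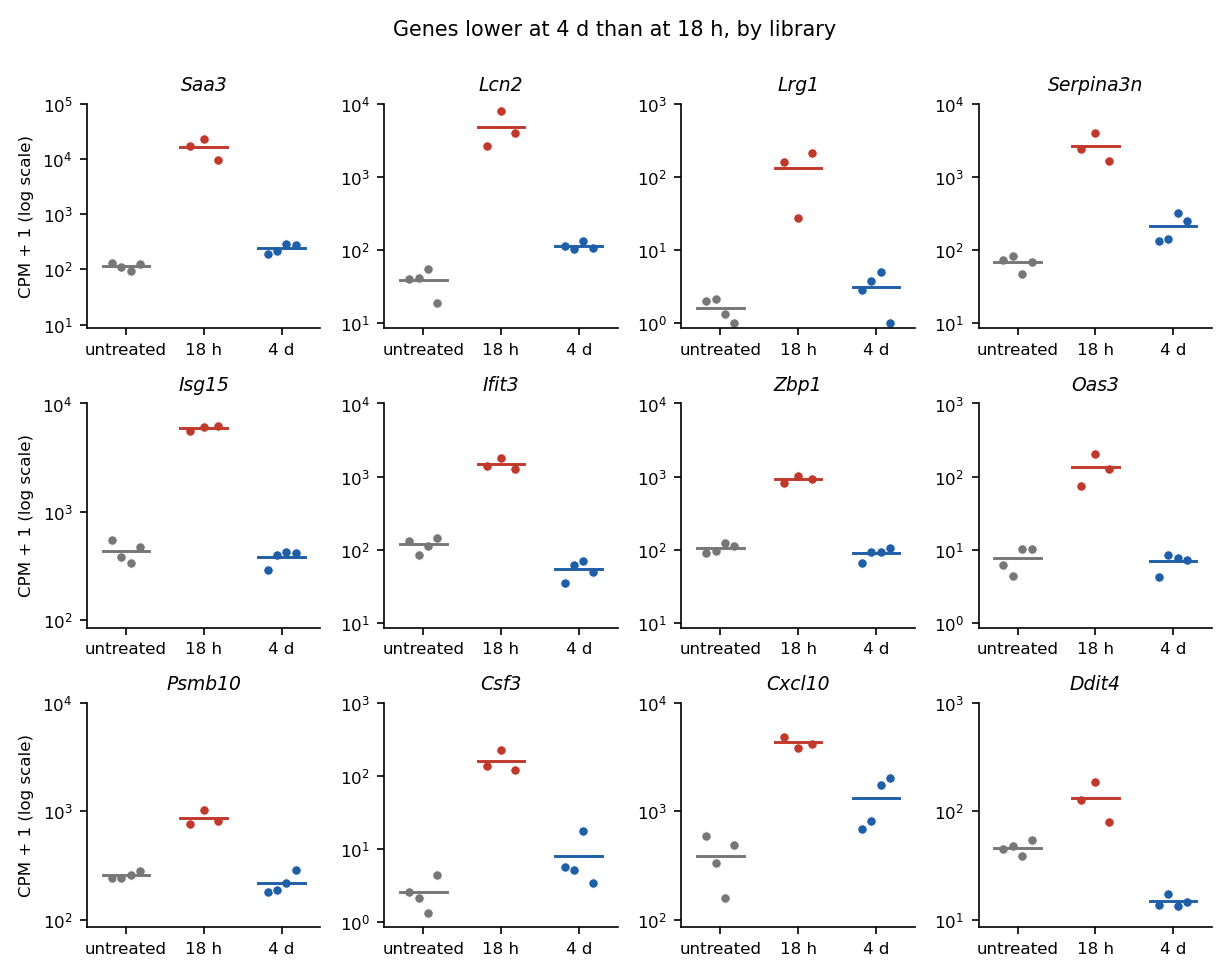
CPM plus 1 on a log scale for 12 genes that were lower at 4 d than at 18 h. Each point is a library and each bar a group mean, in the order untreated, 18 h and 4 d. In every panel the 4 d points lie below the 18 h points, and for Ddit4 and Ifit3 they also lie below the untreated points.

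The interferon programme was lower at 4 d across nearly the whole list. Of 45 tested members, 41 were lower at 4 d and 1 was higher, with a median log2 difference of -2.46. The median against untreated libraries was -0.19. Leaving out any 1 library left 37 to 42 members lower. Those not called were Phf11d, Oasl2 and Irf1, with differences of -1.72, -1.61 and -0.87.

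Isg15, the ubiquitin-like modifier attached to proteins in infected cells (chr4:156199424-156200818), had 288, 398, 428 and 412 CPM at 4 d, against 5547, 6077 and 6194 CPM at 18 h. Both groups were tight and far apart (-3.96 ± 0.25; adjusted p = 5.43e-07). Untreated libraries had 546, 384, 337 and 477 CPM, a range that overlaps the 4 d values (-0.19 ± 0.21; adjusted p = 0.686). Zbp1, a sensor of left-handed nucleic acids, had 64.4, 93.2, 93.3 and 105 CPM at 4 d and 809, 1021 and 923 CPM at 18 h (-3.37 ± 0.23; adjusted p = 1.31e-06). Usp18, the protease that removes ISG15 and damps the type I receptor, had 23.3, 29.8, 36.01 and 31.1 CPM at 4 d, against 229.7, 194 and 316 CPM at 18 h (-3.04 ± 0.24; adjusted p = 4.76e-06). For Zbp1 and Usp18 the 4 d values again lay within or next to the untreated range (90.1, 93.5, 121 and 110.1 CPM, and 34.2, 28.6, 32.8 and 29.9 CPM).

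Antiviral effectors also fell. Oas3, which makes the 2',5'-linked adenylates that switch on RNase L, had 3.27, 7.44, 6.67 and 6.23 CPM at 4 d and 73.03, 200.5 and 127 CPM at 18 h (-4.48 ± 0.41; adjusted p = 1.51e-05). Mx1, a dynamin-like GTPase, had 1.46, 5.32, 10.7 and 8.72 CPM at 4 d, against 279.9, 48.6 and 122 CPM at 18 h (-4.59 ± 0.69; adjusted p = 0.00137). Neither had overlapping groups, which was a condition of their choice, and Mx1 varied more at 18 h than Oas3 did. Bst2, tetherin, which holds budding virus at the cell surface and was picked after its values were seen, had 541, 669, 792 and 934 CPM at 4 d and 3761, 4056 and 4298 CPM at 18 h (-2.46 ± 0.23; adjusted p = 1.51e-05). In Bst2 too the groups did not overlap.

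A few interferon genes did not end at the untreated level. Ifit3, which binds other IFIT proteins on viral RNA, had 33.8, 60.6, 68.01 and 48.6 CPM at 4 d, against 1388, 1768 and 1254 CPM at 18 h (-4.79 ± 0.30; adjusted p = 5.43e-07). Untreated libraries had 132, 82.3, 113 and 146 CPM, all above the 4 d values (-1.16 ± 0.26; adjusted p = 0.0261, lost without 4 d replicate 1 or 4 or untreated replicate 3 or 4 at 0.0651 to 0.0873). Apol9a had 33.1, 44.3, 20.7 and 21.2 CPM at 4 d, below both 255, 361 and 279 CPM at 18 h (-3.29 ± 0.30; adjusted p = 1.33e-05) and 74.1, 72.2, 105 and 63.96 CPM in untreated libraries (-1.38 ± 0.27; adjusted p = 0.0154, or 0.0525 without 4 d replicate 3 and 0.0567 without untreated replicate 3). Ifit3 and Ifit3b, and Apol9a and Apol9b, are near copies of each other whose reads may be split. Irf7, the transcription factor that amplifies type I interferon, differed by -2.25 ± 0.28 from 18 h (adjusted p = 0.000257) and by 1.31 ± 0.26 from untreated (adjusted p = 0.0159). The call against untreated was lost without 4 d replicate 3 (0.0525) or untreated replicate 2, 3 or 4 (0.0549 to 0.0565). The single member that was higher at 4 d was Ifi27, with 712, 728, 734 and 749 CPM at 4 d, against 268, 317 and 413 CPM at 18 h (1.14 ± 0.21; adjusted p = 0.00605). Against untreated, 2 members were higher at 4 d and 3 lower. The 3 came to 1 without 4 d replicate 1, 4 d replicate 3 or 4 d replicate 4, to 2 without untreated replicate 2 or 4, to 0 without untreated replicate 3 and to 5 without 18 h replicate 2 or 3. The 2 came to 1 without 4 d replicate 3 or untreated replicate 2, 3 or 4.

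Stretches of promoter from 6 of these falling genes are shown because they hold the letters that the interferon and C/EBP factors are known to bind. They are RefSeq promoter sequences on GRCm38.p6, 72 bases each, printed 5' to 3' on the gene's strand. The Lcn2 stretch lies inside the gene span given above, so it is upstream only of the start site of its promoter entry. Capitals mark every ISRE core (GAAA, any 2 bases, GAAA, or its reverse complement) in the first 4, where overlapping cores run together, and every C/EBP core (TTGCNNAA or its reverse complement) in the last 2.
Isg15, chr4:156200844-156200915, minus strand: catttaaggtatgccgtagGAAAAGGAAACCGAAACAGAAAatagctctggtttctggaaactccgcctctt
Ifit3, chr19:34583376-34583447, plus strand: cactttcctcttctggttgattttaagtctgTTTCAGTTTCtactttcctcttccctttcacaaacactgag
Oas3, chr5:120777694-120777765, minus strand: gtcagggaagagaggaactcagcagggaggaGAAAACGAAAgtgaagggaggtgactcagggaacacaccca
Bst2, chr8:71537556-71537627, minus strand: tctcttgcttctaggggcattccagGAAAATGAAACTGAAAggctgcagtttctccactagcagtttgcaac
Saa3, chr7:46715736-46715807, minus strand: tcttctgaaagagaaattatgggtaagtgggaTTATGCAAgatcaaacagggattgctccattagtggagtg
Lcn2, chr2:32387916-32387987, minus strand: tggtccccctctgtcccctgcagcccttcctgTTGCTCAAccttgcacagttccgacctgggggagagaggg

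An ISRE core on either strand was present in the 300-base promoter window of 1079 of 27025 genes with an entry (3.99%), and in 316 of the 8056 tested genes that have one (3.92%). Among genes lower at 4 d it was present in 53 of 284 (18.7%), and among genes higher at 4 d in 5 of 122 (4.1%). Within the interferon list, 17 of the 30 lower members with an entry had it (56.7%). The C/EBP letters were present in 12.2% of all entries, in 9.97% of tested genes and in 41 of the 284 lower genes (14.4%). In the acute-phase list they were in 8 of the 13 tested members with an entry, and in 5 of the 8 lower ones. The letters of NF-kB (GGGNNTTCC) were in 34 of 284 lower genes and in 8.96% of tested genes. The searches used both strands and may overlap one another. A match describes letters in a window and not a bound site.

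The guanylate-binding proteins and immunity-related GTPases, which attack vacuoles of intracellular pathogens and respond mainly to interferon gamma, were lower at 4 d in 9 of 11 tested members (median -1.69). Gbp5 had 8.004, 6.38, 15.7 and 16.2 CPM at 4 d and 34.1, 86.3 and 49.1 CPM at 18 h (-2.31 ± 0.41; adjusted p = 0.00397). Igtp had 60.8, 64.5, 82.3 and 73.5 CPM at 4 d, against 341, 192 and 292 CPM at 18 h (-1.97 ± 0.26; adjusted p = 0.000486). Neither gene had overlapping groups, and none of the 11 passed against untreated (2 at an unadjusted p below 0.05, 1 with DESeq2, 0 with limma-voom), where 2 did without 18 h replicate 2 and 1 without 18 h replicate 3. The count of lower members came to 5 without 18 h replicate 1 or without 4 d replicate 1.

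Of 21 tested members of the antigen presentation list, 8 were lower at 4 d, none was higher, and the median was -1.26. The lower ones were the immunoproteasome subunits Psmb8, Psmb9 and Psmb10, the activators Psme1 and Psme2, the transporter Tap1 and Tap2, and Nlrc5, the transactivator of class I genes. Psmb10 had 181, 187, 218 and 289 CPM at 4 d, against 761, 1029 and 818 CPM at 18 h (-1.99 ± 0.22; adjusted p = 0.000105). Nlrc5 had 8.37, 9.57, 15.7 and 13.7 CPM at 4 d and 67.2, 99.6 and 55.3 CPM at 18 h (-2.65 ± 0.33; adjusted p = 0.000268). The other 13 gave no call, among them the loading factors Tapbp (-0.47 ± 0.22) and Tapbpl (-0.98 ± 0.28) and the peptide trimmer Erap1 (0.21 ± 0.33). The class I and class II chains had differences of both signs without a call. H2-T22, H2-Q4, H2-T23 and H2-Q6 differed by -1.47 ± 0.52, -0.95 ± 0.51, -0.72 ± 0.31 and -0.64 ± 0.45, and H2-Aa and H2-Ab1 by -1.37 ± 0.64 and -1.44 ± 0.64. H2-D1 differed by 0.79 ± 0.28. H2-K1, picked after its values were seen, had 3777, 4722, 5911 and 7353 CPM at 4 d, against 2861, 2656 and 4368 CPM at 18 h, with a difference of 0.72 ± 0.27 that did not pass (adjusted p = 0.142). H2-K1 and H2-D1 passed against untreated at 4 d (1.03 and 1.06), but neither call held without 18 h replicate 1, 4 d replicate 2, 3 or 4 or any 1 untreated library, where the count was 0. Class I genes are near copies of each other.

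Chemokines and cytokines included some that fell and others with no call. Of 28 tested members, 5 were lower at 4 d (Csf3, Ccl3, Cxcl14, Ccl4 and Cxcl10), none was higher, and the median was -0.72. Csf3, the granulocyte growth factor, had 4.73, 4.25, 17 and 2.49 CPM at 4 d, against 136, 227 and 119 CPM at 18 h (-4.34 ± 0.51; adjusted p = 0.000157). Ccl3, a chemokine mostly made by leukocytes, had 0.364, 0, 4.001 and 0 CPM at 4 d and 27.2, 26.7 and 24.8 CPM at 18 h (-4.24 ± 0.70; adjusted p = 0.00258). It had 13 counts over the 4 d libraries, against 125 over the 18 h libraries, so the size of its fall is uncertain. Cxcl14 had 4.37, 4.25, 13.7 and 17.4 CPM at 4 d, against 186, 47.4 and 62.9 CPM at 18 h (-3.46 ± 0.59; adjusted p = 0.00333). Csf3 was highest at 4 d in replicate 3, which also had the only Ccl3 value above 1 CPM.

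Cxcl10, the CXCR3 ligand induced by interferon, had 689.8, 820.3, 1756 and 2028 CPM at 4 d and 4878, 3884 and 4227 CPM at 18 h (-1.71 ± 0.42; adjusted p = 0.0301). Against 589, 329.8, 159 and 484 CPM in untreated libraries it was still higher at 4 d (1.76 ± 0.41; adjusted p = 0.0302, lost without 4 d replicate 3 or 4 or untreated replicate 2, 3 or 4 at 0.067 to 0.09). The fall did not pass without 18 h replicate 1 (adjusted p = 0.107), 4 d replicate 1 (0.0756) or 4 d replicate 2 (0.0783). The number of lower members of the list came to 3 without 18 h replicate 1 or 4 d replicate 1 or 2, and to 8 without 18 h replicate 2 or untreated replicate 1. Ccl2, the monocyte attractant, which was picked after its values were seen, was at 5127, 4333, 7922 and 5785 CPM at 4 d and 5393, 1637 and 7715 CPM at 18 h, overlapping groups with a difference of 0.24 ± 0.54 (adjusted p = 0.827). Its 4 d level was 2.28 ± 0.52 above untreated (adjusted p = 0.0278), a call lost without 4 d replicate 3 or 4 or untreated replicate 2, 3 or 4 (0.0568 to 0.0852).

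In all, 7 of the 28 chemokines and cytokines were above untreated at 4 d (Cxcl10, Lif, Cxcl2, Ccl8, Cxcl5, Ccl2 and Ccl7). That count came to 0 without 4 d replicate 3, untreated replicate 2 or untreated replicate 3, to 1 without untreated replicate 4, to 2 without 4 d replicate 4, to 3 without 4 d replicate 1, to 4 without 18 h replicate 1 and to 12 without 18 h replicate 2.

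Several genes gave no call between 4 d and 18 h and stood above untreated at 4 d. Tnfaip6, Has2 and Adamts4 were singled out among them after their values were seen. Tnfaip6 encodes an enzyme that transfers heavy chains onto hyaluronan, and Has2 a hyaluronan synthase. Adamts4 encodes a protease of the hyaluronan-bound proteoglycan aggrecan. Tnfaip6 had 1368, 1203, 2596 and 1824 CPM at 4 d and 876, 1636 and 1744 CPM at 18 h, overlapping groups with a difference of 0.30 ± 0.41 (adjusted p = 0.698). Untreated libraries had 359, 238, 92.7 and 304 CPM, all below the 4 d values (2.81 ± 0.40; adjusted p = 0.00393, at most 0.0236 without any 1 library). Has2 stood at 58.2, 42.5, 70.3 and 41.1 CPM at 4 d and 33.05, 99.6 and 49.6 CPM at 18 h, against 9.32, 9.52, 2.497 and 12.5 CPM in untreated libraries (2.67 ± 0.43 for 4 d minus untreated; adjusted p = 0.00723). Adamts4 differed from untreated by 3.19 ± 0.47 (adjusted p = 0.00483) and from 18 h by 0.33 ± 0.45 (adjusted p = 0.705).

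The PYHIN genes, a family of DNA-binding interferon-inducible proteins that lie in 1 cluster and resemble each other in sequence, were another such group. None of 6 tested members passed against 18 h (median -0.42; 2 at an unadjusted p below 0.05, 1 with DESeq2 and 1 with limma-voom), and 1 or 2 were lower without 18 h replicate 1 or 2, 4 d replicate 3 or untreated replicate 1. Against untreated 4 were higher at 4 d, and the count was 4 or 5 without any 1 library. Ifi205, picked after its values were seen, had 315, 326, 471 and 629 CPM at 4 d and 297, 568 and 473 CPM at 18 h (-0.04 ± 0.32; adjusted p = 0.961). Untreated libraries had 50.2, 82.3, 42.8 and 82.9 CPM (2.75 ± 0.32 for 4 d minus untreated; adjusted p = 0.00171).

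In the metal and oxidative stress list, 1 of 15 tested members was lower at 4 d than at 18 h (Slc30a1, a zinc exporter, -1.80 ± 0.33; adjusted p = 0.00485), none was higher, and 8 were above untreated. Over all genes tested, 3.81% were lower than at 18 h and 2.48% above untreated. Hmox1, which breaks down haem and was chosen after its values were seen, had 605, 681, 1009 and 1906 CPM at 4 d, 638, 499 and 619.9 CPM at 18 h (0.84 ± 0.42; adjusted p = 0.264) and 214, 355, 107 and 309 CPM in untreated libraries (2.09 ± 0.40 for 4 d minus untreated; adjusted p = 0.0132). The metallothioneins Mt1 and Mt2, near copies of each other, were 2.08 and 2.41 above untreated at 4 d and did not pass against 18 h (adjusted p = 0.382 and 0.352). The Mt2 call against untreated was lost without untreated replicate 4 (0.0585). The 8 came to 5 without 4 d replicate 3 or 4, to 4 without untreated replicate 2 or 3 and to 1 without untreated replicate 4. Slc30a1 was joined by a second lower member without 18 h replicate 3, 4 d replicate 3 or untreated replicate 1 or 3.

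Among genes of the glucocorticoid response, 26 tested, 2 were higher at 4 d than at 18 h, 1 was lower, and the median was -0.11. Over all genes tested, 1.7% were higher and 3.81% lower. Nr3c1, the glucocorticoid receptor itself (chr18:39410545-39519421), had 59.7, 53.1, 63.7 and 87.2 CPM at 4 d, against 37.3, 19.4 and 34.3 CPM at 18 h (1.07 ± 0.27; adjusted p = 0.0319). Its groups did not overlap, and untreated libraries had 77.2, 109.8, 95.95 and 96.1 CPM (-0.54 ± 0.23; adjusted p = 0.233). The Nr3c1 call was lost without 18 h replicate 1 (adjusted p = 0.064) or 2 (0.0613) and without 4 d replicate 1 (0.0591), 3 (0.0563) or 4 (0.0769), where 1 member stayed higher. Pdk4, a kinase that keeps pyruvate from oxidation, had 17.5, 23.03, 11.3 and 16.2 CPM at 4 d, against 4.80, 1.22 and 3.34 CPM at 18 h (2.29 ± 0.44; adjusted p = 0.00634).

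Ddit4, an inhibitor of mTORC1 that glucocorticoids induce (chr10:59949669-59951834), was below both other groups. It had 12.7, 16.3, 12.3 and 13.7 CPM at 4 d, against 125, 187 and 79.6 CPM at 18 h (-3.23 ± 0.29; adjusted p = 1.33e-05). Untreated libraries had 43.5, 47.04, 37.8 and 52.98 CPM, none of them within the 4 d range (-1.71 ± 0.27; adjusted p = 0.00722). The classical targets Tsc22d3, Fkbp5 and Per1 did not pass: Tsc22d3 had 28.02, 42.5, 30.7 and 17.4 CPM at 4 d and 19.7, 42.5 and 14.8 CPM at 18 h (0.33 ± 0.38; adjusted p = 0.648), and the differences of Fkbp5 and Per1 were -0.27 ± 0.49 and -0.21 ± 0.40. Against untreated, 6 members were higher at 4 d and 1, Ddit4, lower, joined by a second without 18 h replicate 2. Over all genes tested, 2.48% were higher and 0.824% lower than in untreated libraries. The 6 came to 4 without 4 d replicate 4, to 3 without 4 d replicate 3 or untreated replicate 2 or 3, and to 1 without untreated replicate 4.

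None of 15 tested circadian clock genes passed in either direction, though 13 had positive differences and the median was 0.80. At an unadjusted p below 0.05 there were 6, with DESeq2 1 and with limma-voom 0. With 1 library left out, 1 member was higher without 4 d replicate 3 or untreated replicate 1. Dbp, a clock output factor, had 30.9, 54.6, 10 and 90.9 CPM at 4 d and 3.20, 15.8 and 5.72 CPM at 18 h (2.63 ± 0.78; adjusted p = 0.0649), and it passed without 4 d replicate 3 (3.00; 0.0208). The hour at which each group was collected is not given in the labels, so time since injection and time of day cannot be told apart.

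Matrix genes were among the rises. In the elastic fibre list, 5 of 18 tested members were higher at 4 d, none was lower, and the median was 0.80. Eln, the gene of tropoelastin (chr5:134702593-134747323), had 1913, 2324, 1704 and 1271 CPM at 4 d, against 590.1, 563 and 604 CPM at 18 h (1.62 ± 0.24; adjusted p = 0.0012). Mfap4, a microfibril-associated protein, had 698, 858, 1056 and 953 CPM at 4 d and 198, 197 and 267 CPM at 18 h (2.01 ± 0.31; adjusted p = 0.00156). Fbln2, fibulin 2, which links elastic fibres to basement membranes, had 1798, 1918, 1576 and 1212 CPM at 4 d, against 599, 486 and 776 CPM at 18 h (1.39 ± 0.24; adjusted p = 0.00348). In all 3 the 18 h libraries lay close together and below every 4 d library, and the 4 d values did not differ from untreated past the threshold (0.34, 0.17 and 0.72). For Fbln2 every 4 d value was still above the untreated ones (1072, 1031, 928.5 and 920.4 CPM; adjusted p = 0.0821).

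Lox, whose product cross-links collagen and elastin, had 334, 498, 520.1 and 399.9 CPM at 4 d and 181, 188 and 233 CPM at 18 h (1.12 ± 0.26; adjusted p = 0.0218). At 4 d it was also above untreated (127, 211, 112 and 149.9 CPM; 1.55 ± 0.24; adjusted p = 0.00658). The call against 18 h did not hold without 18 h replicate 1 (adjusted p = 0.11), 4 d replicate 2 (0.0543) or 4 d replicate 3 (0.0522). The number of higher elastic fibre members came to 3 without 18 h replicate 1 or 4 d replicate 3.

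**Figure D3:**
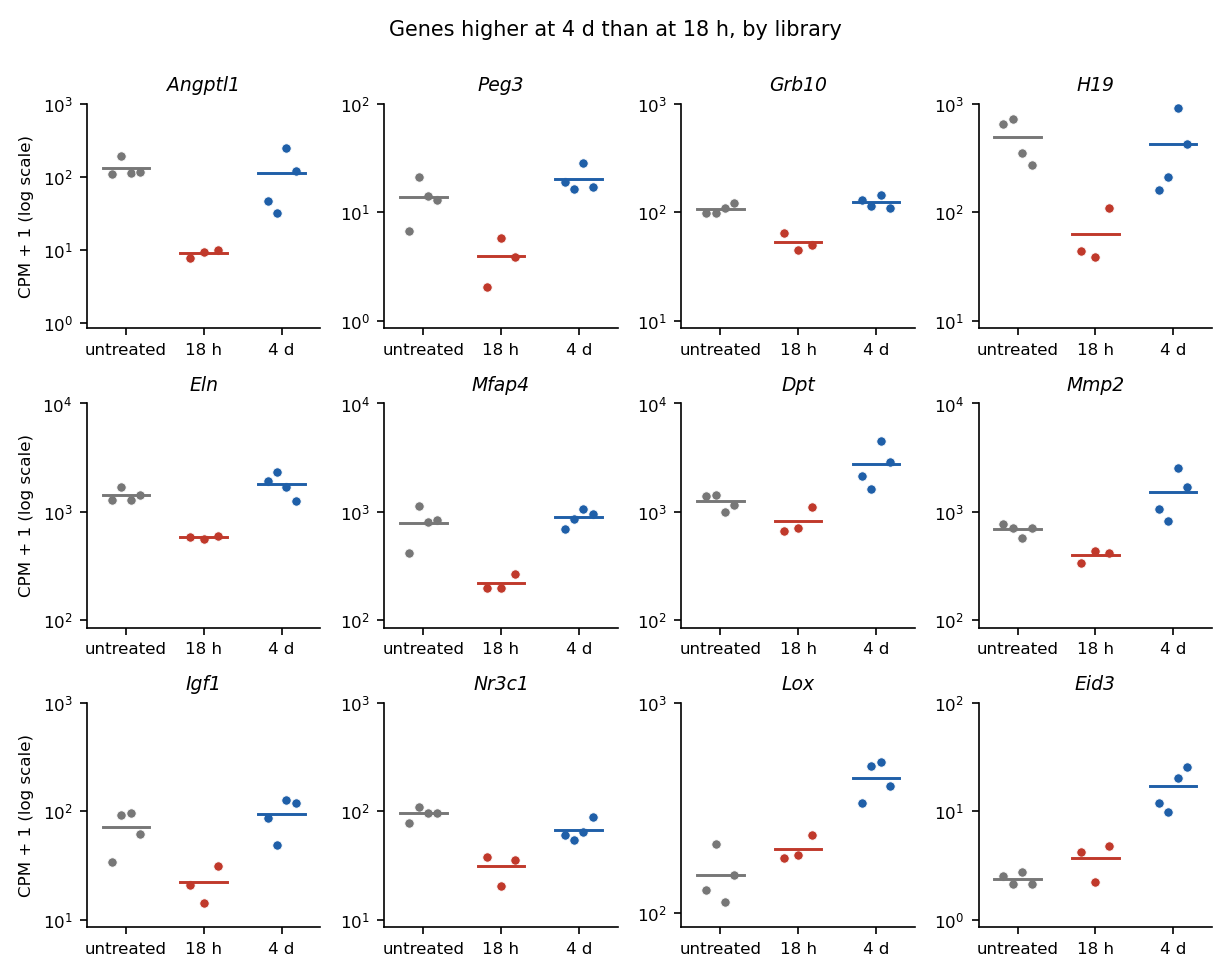
CPM plus 1 on a log scale for 12 genes that were higher at 4 d than at 18 h. Each point is a library and each bar a group mean, in the order untreated, 18 h and 4 d. In every panel the 4 d points lie above the 18 h points, and for Mmp2, Dpt, Lox and Eid3 also above every untreated point.

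Of 15 tested interstitial collagens, 6 were higher at 4 d (Col8a1, Col14a1, Col6a5, Col6a1, Col6a2 and Col1a2), none was lower, and the median was 1.28. Against untreated none of the 15 passed in either direction, with edgeR, DESeq2 or limma-voom or at an unadjusted p below 0.05 (0 by each). Col6a5, a chain of beaded-filament collagen VI, had 47.7, 20.6, 55.7 and 34.9 CPM at 4 d, against 8.53, 9.72 and 8.11 CPM at 18 h (2.20 ± 0.39; adjusted p = 0.00389). Col14a1, which sits on collagen fibrils, had 234, 231, 836 and 546 CPM at 4 d and 85.8, 34.02 and 131 CPM at 18 h (2.44 ± 0.50; adjusted p = 0.00967, or 0.0564 without 18 h replicate 1). Of the main fibrillar chains, Col1a2 passed (1.28 ± 0.32; adjusted p = 0.0323). Col3a1 had 6858, 5587, 10140 and 6846 CPM at 4 d, against 2846, 380.3 and 4956 CPM at 18 h, and Col1a1 326, 250.2, 521 and 349 CPM, against 244, 78.98 and 211 CPM. Neither passed (1.43 ± 0.56 and 1.01 ± 0.41; adjusted p = 0.151 and 0.175), although the groups did not overlap, and 18 h replicate 2 was the lowest library for both. Without 18 h replicate 3, Col3a1 passed (2.19; adjusted p = 0.0404). The 6 came to 3 without 18 h replicate 1 or 4 d replicate 4, to 2 without 18 h replicate 2 or 4 d replicate 3, and to 1 without both of the shallowest libraries.

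Calls were fewer in other matrix lists, given here beside 1.7% higher over all genes tested. Dpt, dermatopontin, a small protein that joins collagen fibrils, had 2159, 1619, 4462 and 2915 CPM at 4 d and 667, 713 and 1099 CPM at 18 h (1.75 ± 0.34; adjusted p = 0.00676) and was above untreated as well (1.16 ± 0.30; adjusted p = 0.0484, lost without any 1 library other than 4 d replicate 2 and 18 h replicates 2 and 3 at 0.0572 to 0.161). It was 1 of 2 higher members among 14 proteoglycans and small matrix proteins, beside Aspn. That count came to 1 without 18 h replicate 1 or 4 d replicate 4 and to 5 without untreated replicate 1. In the basement membrane list, 3 of 19 were higher (Nid1, Lama2 and Col4a5), a count that came to 0 without 18 h replicate 1 and to 1 without 4 d replicate 3. Nid1, which ties laminin to collagen IV, had 681, 727, 1434 and 1137 CPM at 4 d, against 321, 250.3 and 310.4 CPM at 18 h (1.76 ± 0.38; adjusted p = 0.0153, or 0.0616 without 18 h replicate 1).

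Matrix proteases and their inhibitors held a few calls in both directions. Mmp2, the gelatinase of resting fibroblasts, had 1069, 815, 2530 and 1697 CPM at 4 d and 335, 435 and 419 CPM at 18 h (1.95 ± 0.34; adjusted p = 0.00389). Mmp3, stromelysin, an inflammation-induced protease, had 4.73, 7.44, 18 and 16.2 CPM at 4 d, against 255, 31.6 and 131 CPM at 18 h (-3.66 ± 0.57; adjusted p = 0.00172). Neither had overlapping groups. Timp1, an inhibitor of such proteases, had 491, 412, 878 and 455 CPM at 4 d and 1648, 1783 and 1284 CPM at 18 h (-1.49 ± 0.33; adjusted p = 0.0159), a call lost without 18 h replicate 1 (0.0589) or 4 d replicate 1 (0.0512). Untreated libraries had 156, 91.8, 58.1 and 95.4 CPM of it, with a 4 d minus untreated difference of 2.48 ± 0.32 (adjusted p = 0.00244). Across the 24 tested remodelling genes, 3 were higher and 2 lower than at 18 h, and 8 were above untreated at 4 d. Over all genes tested, 1.7% were higher and 3.81% lower than at 18 h, and 2.48% were above untreated. The 3 came to 1 without 18 h replicate 1 or 3, 4 d replicate 3 or 4, or untreated replicate 2, 3 or 4, the 2 to 1 without 18 h replicate 1, and the 8 to 5 without 4 d replicate 1 or 3 or untreated replicate 2 or 3.

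Imprinted genes of growth control, a network expressed from 1 parental allele and highest before adulthood, were higher at 4 d in 6 of 13 tested members (Peg3, H19, Mest, Ndn, Sgce and Grb10), with none lower and a median of 1.26. Peg3, a zinc-finger factor, had 18.2, 15.6, 27.7 and 16.2 CPM at 4 d, against 1.07, 4.86 and 2.86 CPM at 18 h (2.90 ± 0.53; adjusted p = 0.00485). It had 12 counts over the 18 h libraries, so the size of its rise is uncertain. Grb10, an adaptor that restrains insulin and IGF1 receptors, had 130.3, 113, 143 and 108 CPM at 4 d and 62.9, 43.7 and 49.1 CPM at 18 h (1.24 ± 0.22; adjusted p = 0.00389). Sgce, a sarcoglycan, had 117, 116, 217 and 149.5 CPM at 4 d, against 65.03, 48.6 and 72.5 CPM at 18 h (1.26 ± 0.26; adjusted p = 0.0105). The long non-coding RNA H19 had 159, 211, 924 and 422 CPM at 4 d and 42.6, 37.7 and 108 CPM at 18 h (2.75 ± 0.62; adjusted p = 0.0178, or 0.1 without 18 h replicate 1 and 0.0547 without 18 h replicate 2). No member passed against untreated (3 at an unadjusted p below 0.05, 0 with DESeq2 or limma-voom), where 1 was lower without 4 d replicate 3. The 6 came to 3 without 18 h replicate 1 or 2 or without both of the shallowest libraries.

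**Figure D4:**
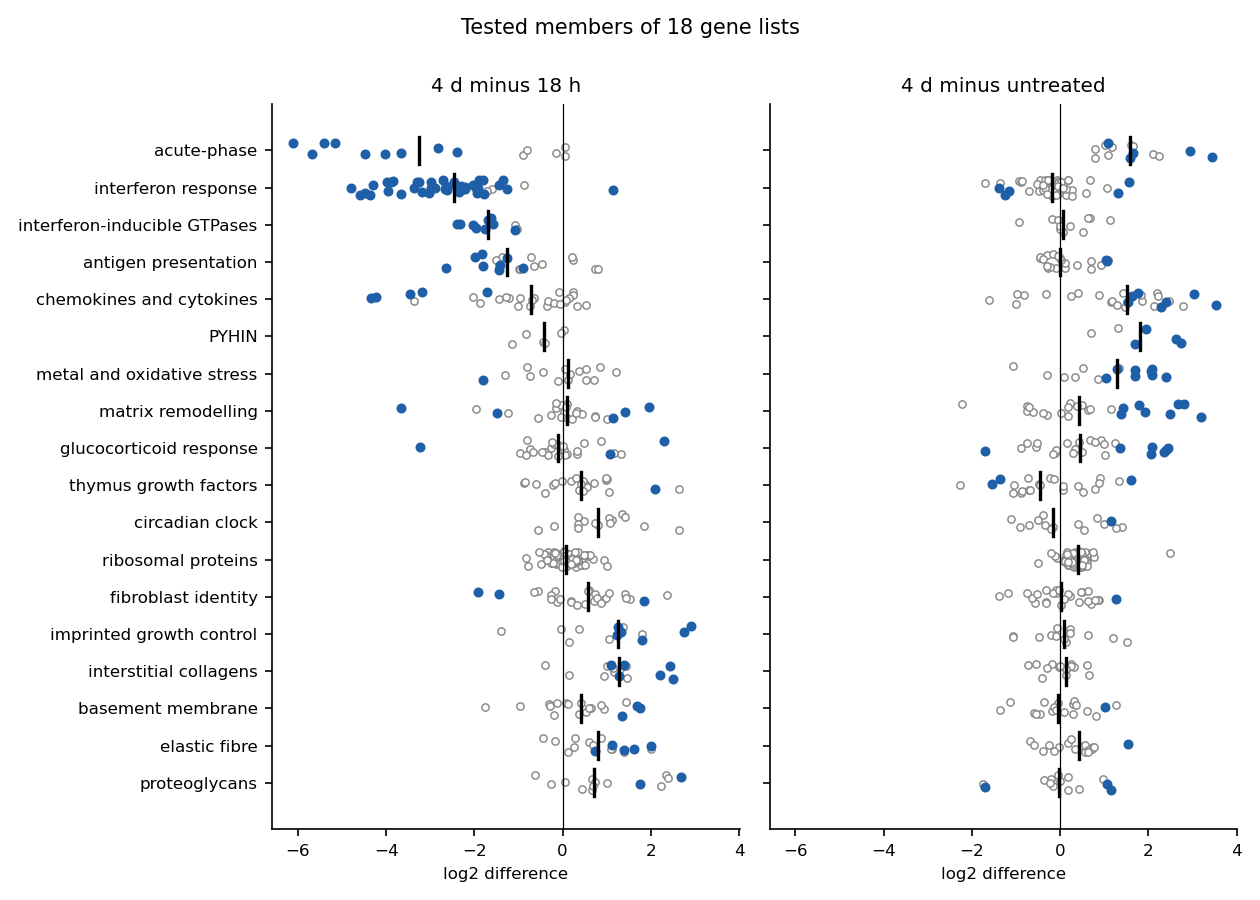
Log2 differences of every tested member of 18 gene lists, for 4 d minus 18 h (left) and 4 d minus untreated (right). Filled points passed the threshold, open points did not, and black bars are medians. Interferon, GTPase and antigen presentation medians lie between -2.46 and -1.26 on the left and near 0 on the right. The acute-phase, chemokine, PYHIN and metal and oxidative stress medians lie above 1 on the right.

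Growth factors known from the thymus gave 1 call. Of 23 tested, 1 was higher at 4 d, none was lower, and the median was 0.43. Over all genes tested 1.7% were higher, so 1 call says little about the list. Igf1, a mitogen for epithelial cells and thymocytes (chr10:87858265-87937042), had 86.2, 47.8, 125 and 118 CPM at 4 d, against 19.7, 13.4 and 30.5 CPM at 18 h (2.10 ± 0.43; adjusted p = 0.0109). Its groups did not overlap, but the call was lost without 18 h replicate 1 (adjusted p = 0.0673) or without both of the shallowest libraries (0.0741). Bmp4, which sustains thymic epithelial cells, had 24.4, 26.2, 32.7 and 28.6 CPM at 4 d and 13.3, 30.4 and 17.6 CPM at 18 h (0.52 ± 0.30; adjusted p = 0.341). It was below the untreated libraries, which had 55.9, 96.9, 72.05 and 63.96 CPM (-1.37 ± 0.26; adjusted p = 0.0132). Mdk, the heparin-binding growth factor midkine, picked after its values were seen, differed by -1.54 ± 0.24 from untreated at 4 d (adjusted p = 0.00658, at most 0.0254 without any 1 library) and by 0.43 ± 0.26 from 18 h (adjusted p = 0.358).

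Vegfa, the vascular growth factor, picked after its values were seen, had 129.5, 141, 302 and 199 CPM at 4 d and 126, 138 and 183 CPM at 18 h (0.37 ± 0.34; adjusted p = 0.56). Against 94.3, 49.8, 38.9 and 72.7 CPM in untreated libraries it was higher at 4 d (1.59 ± 0.32; adjusted p = 0.0168), a call lost without 4 d replicate 3 or untreated replicate 2 or 3 (0.0539 to 0.0586). Fgf7, which acts on epithelium, and Kitl, which acts on progenitors, differed from 18 h by 0.72 ± 0.49 and 0.98 ± 0.54 (adjusted p = 0.416 and 0.307). Cxcl12, the ligand of CXCR4, had 139.7, 85.8, 211 and 121 CPM at 4 d and 284, 68.05 and 278 CPM at 18 h (-0.60 ± 0.46; adjusted p = 0.47). Fgf10 had 34 counts over the 4 d libraries and 3 over the 18 h libraries, too few for a fold.

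Type 2 immunity is named in the title of the series, and 9 genes of that list were tested. None passed against 18 h (0 also at an unadjusted p below 0.05, with DESeq2 and with limma-voom), and the median was 0.05. Without 18 h replicate 2, 1 was lower. Il33, an alarmin of stromal cells, had 214, 174, 399.7 and 318 CPM at 4 d, against 236, 74.1 and 386 CPM at 18 h (0.24 ± 0.41; adjusted p = 0.767). Il4ra, a receptor chain for IL-4 and IL-13, had 19.3, 17.4, 48.3 and 26.2 CPM at 4 d and 21.3, 24.3 and 22.9 CPM at 18 h (0.30 ± 0.41; adjusted p = 0.703). Against 9.32, 5.60, 2.497 and 8.33 CPM in untreated libraries it was higher at 4 d (2.13 ± 0.41; adjusted p = 0.0132), with no overlap.

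Among genes with a mean count of at least 10, the leading rises were in genes of modest level. Angptl1, an angiopoietin-like secreted protein, had 45.8, 30.8, 252 and 118 CPM at 4 d, against 6.93, 8.51 and 9.06 CPM at 18 h (3.77 ± 0.67; adjusted p = 0.00421). Ptprd, a receptor tyrosine phosphatase, had 11.3, 9.57, 7.67 and 19.9 CPM at 4 d and 1.07, 0 and 1.91 CPM at 18 h (3.16 ± 0.55; adjusted p = 0.00371). Mturn and Tulp1 differed by 3.00 ± 0.54 and 2.99 ± 0.53 (adjusted p = 0.00439 and 0.00421), from 18 h levels that were all under 2 CPM. Mturn, Tulp1 and Ptprd had 97, 94 and 97 counts over the 4 d libraries, against 6 each over the 18 h libraries. They reached the mean count of 10 through the 4 d group, and the size of their rises is uncertain. Angptl1, Ptprd, Mturn and Tulp1 were picked among genes without overlap between 4 d and 18 h, and none passed against untreated (-0.25, -0.31, -0.03 and 0.12).

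Some genes were picked because at 4 d they were called against both other groups and overlapped neither. Eid3, a transcriptional repressor related to EID1, had 10.9, 8.86, 19.3 and 24.9 CPM at 4 d, against 3.20, 1.22 and 3.81 CPM at 18 h (2.32 ± 0.48; adjusted p = 0.0107, or 0.0568 without 18 h replicate 1). Untreated libraries had 1.55, 1.12, 1.78 and 1.14 CPM (3.39 ± 0.45 for 4 d minus untreated; adjusted p = 0.00293). Eid3 had 15 counts over the 18 h libraries and 13 over the untreated ones, so the size of both differences is uncertain. Arl4a, a small GTPase, was above both in the same way (1.81 ± 0.36 and 1.74 ± 0.31), and its call against 18 h was lost without 18 h replicate 1 (0.0625). In the other direction, Ppp1r14a, an inhibitor of myosin phosphatase known from smooth muscle, had 9.10, 4.61, 13 and 13.7 CPM at 4 d, against 79.4, 38.9 and 34.8 CPM at 18 h (-2.40 ± 0.43; adjusted p = 0.00426) and 17.1, 43.1, 24.2 and 41.2 CPM in untreated libraries (-1.69 ± 0.41; adjusted p = 0.0376). The call against untreated was lost without any 1 of the 4 d libraries or untreated replicate 2, 3 or 4 (0.0629 to 0.118).

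Housekeeping programmes gave no calls at 4 d against 18 h: none of 78 ribosomal protein genes (median 0.08), 73 oxidative phosphorylation genes (-0.14), 25 endoplasmic reticulum folding genes (-0.06) or 12 heat shock genes (-0.12) passed. At an unadjusted p below 0.05 there were 5, 9, 2 and 2 in that order, with DESeq2 1, 5, 1 and 0, with limma-voom 0, 2, 1 and 0, and with any 1 library left out at most 1, 2, 1 and 0 in either direction. Of 32 cell cycle genes, only Ccnd1 passed, lower at 4 d (-1.33 ± 0.36; adjusted p = 0.0448), a call lost without any 1 of the 18 h libraries 1 and 2, the 4 d libraries or untreated replicate 2 (0.0569 to 0.194). Over all genes tested 3.81% were lower. Mki67, a proliferation marker, had 13.1, 5.32, 7.001 and 2.49 CPM at 4 d and 9.60, 8.51 and 5.72 CPM at 18 h (-0.07 ± 0.50). None of 24 ribosome biogenesis genes passed against 18 h (7 at an unadjusted p below 0.05, 4 with DESeq2, 0 with limma-voom, up to 2 with 1 library left out), while 7 were above untreated at 4 d, a count that came to 11 without 18 h replicate 2, to 4 without untreated replicate 2 and to 2 without untreated replicate 3 or 4.

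Lists of fibroblast and signalling genes held few calls. Ly6a, which encodes the progenitor marker Sca-1 and responds to interferon, had 1515, 1381, 2943 and 2177 CPM at 4 d and 8470, 7303 and 6810 CPM at 18 h (-1.91 ± 0.28; adjusted p = 0.00114). Of 27 fibroblast identity genes it was lower along with Pdgfrb, and Scara5 was higher. The shares over all genes tested were 3.81% lower and 1.7% higher. The 2 lower came to 1 without 18 h replicate 1 or 2, 4 d replicate 1, 2 or 4 or untreated replicate 2 or 4. The 1 higher came to 0 without 18 h replicate 1 or 2 or 4 d replicate 3 or 4, to 2 without 4 d replicate 2 or untreated replicate 1 and to 3 without 18 h replicate 3. In the collagen processing list, 3 of 20 were higher (Lox, Pcolce2 and Fkbp9). That count came to 0 without 18 h replicate 1 or 4 d replicate 3 and to 1 without 4 d replicate 2 or 4 or untreated replicate 2 or 4.

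Single members were lower at 4 d among 20 immediate early genes (Jun), 20 genes of p53 and growth arrest (Gdf15), 12 of complement (Cfb), 9 of dead-cell uptake (Scarb1) and 15 of TGF-beta (Tagln). Of all genes tested, 3.81% were lower, so 1 call in a list of 9 to 20 genes is no result about the list. The Jun count came to 0 without 18 h replicate 1 or 2 or 4 d replicate 2, 3 or 4, and the Gdf15 count to 0 without 18 h replicate 1 or 4 d replicate 1. The Cfb call was lost without both of the shallowest libraries (0.074). The Scarb1 count came to 0 without 18 h replicate 1 and to 2 without 18 h replicate 2 or 3. Of 11 adipogenic genes, Scd1 and Scd2 were higher and Fabp4 lower, and neither count held without 18 h replicate 1 or 4 d replicate 1 (0 each). With any other 1 library left out, the higher count lay between 0 and 3 and the lower between 0 and 2. None of 18 NF-kB genes (4 at an unadjusted p below 0.05), 14 JAK-STAT genes (1), 14 retinoic acid genes (3), 6 IGF-binding proteins (0), 15 glycolysis genes (3) or 12 cholesterol synthesis genes (1) passed, and DESeq2 and limma-voom called 1 retinoic acid gene each and 0 of the others.

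Markers of other cell types moved with the same comparison. Of 9 tested endothelial markers 5 were lower at 4 d, of 14 macrophage and monocyte markers 7, and of 10 pericyte and smooth muscle markers 4. None was called higher, though 3, 2 and 3 had positive differences. With limma-voom the calls numbered 2, 7 and 4. Over all genes tested, 3.81% were lower. Pecam1, the endothelial CD31 that the sort excludes, had 1.82, 12.1, 11.3 and 4.98 CPM at 4 d, against 122, 14.6 and 42.9 CPM at 18 h (-2.94 ± 0.66; adjusted p = 0.0173), and the highest value was in 18 h replicate 1. Its call was lost without that library (0.174) or without 4 d replicate 4 (0.0523). Tagln, an actin-binding protein of smooth muscle, had 32.7, 44.3, 26.7 and 7.47 CPM at 4 d and 407, 176 and 104 CPM at 18 h (-2.98 ± 0.49; adjusted p = 0.00254), and Cd68, a macrophage lysosomal protein, 15.6, 17.4, 12.7 and 13.7 CPM at 4 d, against 28.2, 32.8 and 37.7 CPM at 18 h (-1.14 ± 0.24; adjusted p = 0.0108). Without 18 h replicate 1, the lower markers numbered 1 (endothelium), 1 (macrophage) and 2 (pericyte). The endothelial count also came to 12 without 18 h replicate 2 and to 3 without 4 d replicate 1 or 2, and the macrophage count to 1 without 4 d replicate 1, to 3 without 18 h replicate 3 or 4 d replicate 2 and to 4 without untreated replicate 4. The number of markers with enough counts to test changed with the libraries used.

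The summed markers had ranges of 379 to 521 CPM at 4 d, against 402 to 1300 CPM at 18 h, for endothelium (17 genes listed). The sum for macrophages and monocytes (15 genes in the table of 18 listed) was 93.5 to 228 CPM at 4 d, against 247 to 631 CPM at 18 h. Pericytes and smooth muscle (12 of 14) had 167 to 225 CPM at 4 d and 414 to 1140 CPM at 18 h, and granulocytes (5 of 13) 2.55 to 7.67 CPM at 4 d and 8.11 to 122 CPM at 18 h. The sum for dendritic and B cells (7 of 10) was 6.38 to 35.3 CPM at 4 d and 37.7 to 71.5 CPM at 18 h. The last 4 did not overlap, and 4 against 3 libraries can give no two-sided exact permutation p below 0.0571, which each of them had (adjusted p = 0.157 over 11 lists). The endothelial sums overlapped (exact permutation p = 0.2286). Many interferon, chemokine and GTPase genes are also expressed in these cells, and their part in the falls was not tested.

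**Figure D5:**
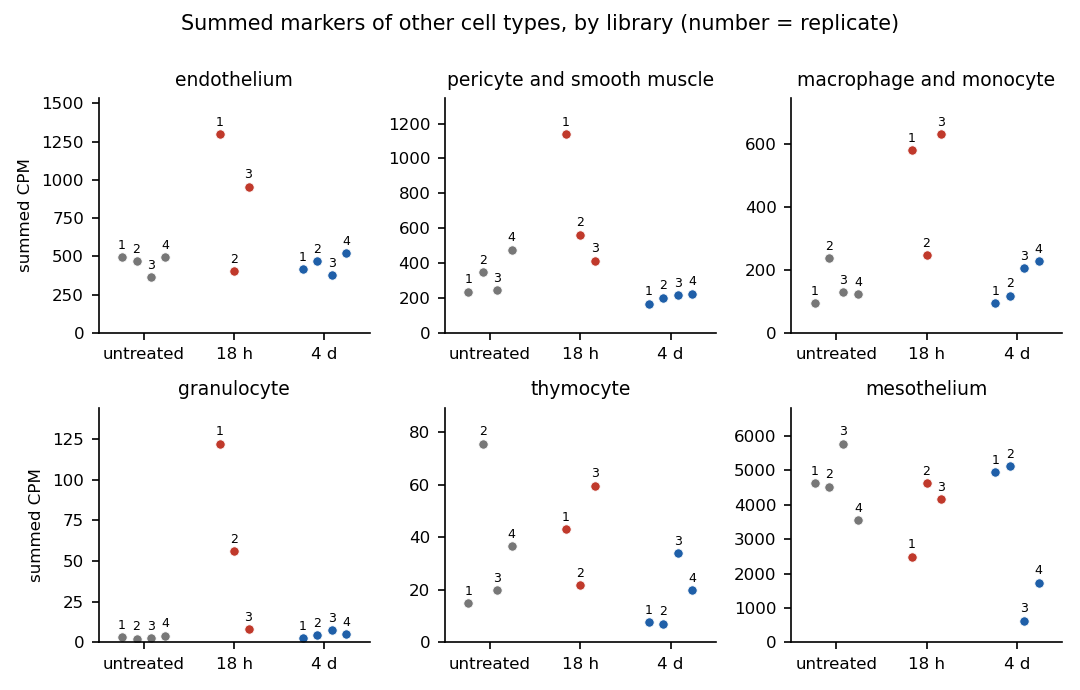
Summed CPM of the markers of 6 other cell types in each library, with the replicate number at each point and groups in the order untreated, 18 h and 4 d. Endothelial and pericyte sums are highest in 18 h replicate 1 and the macrophage sum in 18 h replicate 3, while the mesothelial sum is lowest in 4 d replicate 3.

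Within the 4 d group the libraries were not alike. The mesothelial sum was 4950 and 5120 CPM in replicates 1 and 2, against 632 CPM in replicate 3 and 1740 CPM in replicate 4, and the thymic epithelial sum ran from 84.0 CPM in replicate 3 to 760.0 CPM in replicate 2. Several rising genes were highest in the same replicate 3: Angptl1 (252 CPM), H19 (924 CPM), Col14a1 (836 CPM), Pamr1 (269 CPM) and Scara5 (968 CPM). Mesothelial sums at 18 h were 2490 to 4630 CPM, and the part of this difference in the rises was not tested.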

How the data were processed

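Thymic fibroblast RNA was counted by MARS-seq in 11 libraries. The deposited table holds raw counts per gene, per the file headers. The submitters' processing notes name bcl2fastq, cutadapt, STAR 2.5.2b, HTSeq, DESeq2 and the mm10 build, without their order. Strand use and treatment of molecular barcodes are not given here. The fold changes and adjusted p-values beside the deposited counts were not used.

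All 11 libraries entered 1 edgeR 4.0.16 fit (R 4.3.3) with TMM scaling, filterByExpr (minimum count 10) and group as the only term. Quasi-likelihood tests compared 4 d with 18 h, and 4 d with untreated, with Benjamini-Hochberg adjustment over 10067 genes and a threshold of 0.05. The SE is the log2 difference divided by the square root of F. CPM are counts scaled to the library total times its TMM factor (0.879 to 1.159). DESeq2 1.42.0, limma 3.58.1, other filters and scalings, a replicate block and leaving out libraries were alternatives. Marker sums were compared by exact permutation (scipy 1.17.1). The fit was tested on simulated data.

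Genes named were the 12 largest and 12 smallest called log2 differences (mean count of at least 10, groups without overlap), up to 4 called members per list, genes listed in advance, and 6 per direction called against both groups. Others are marked as chosen after their values were seen. For the 12 at each end and the 6 per direction, lack of overlap was part of the choice and is not a result. The share of all genes tested without overlap is not given here. The members and the 48 lists were chosen with earlier results of these data known. Coordinates are from GENCODE M21 on GRCm38, the assembly of mm10. All 15 pairs of replicates differed by more than sampling noise. Some results are not reported here.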

Additional observations from a re-analysis of the deposited data

Results flagged for a closer look

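Only the 4 d group was searched, in 125 sets of 4 values, and the untreated group was not. A value was singled out when its gap to the nearest other library exceeded Dixon's 95% critical share of the group's range. Of the 125 sets 10 held such a value, and chance alone gives about 1 in 20.

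Of these, 7 were in 4 d replicate 3: Pamr1 at 269 CPM (others 82.2 to 97.9), Lama2 at 448 CPM (181 to 206), Timp1 at 878 CPM (412 to 491), Csf3 at 17.0 CPM (2.49 to 4.73), Fcer1g at 9 CPM (0 to 1.06), Ccl3 at 4 CPM (0 to 0.364) and Il1rn at 1.33 CPM (0 in the others). The same library had the lowest mesothelial and thymic epithelial sums of its group. In 4 d replicate 4, the shallowest of its group, Gbp4 stood at 7.47 CPM (3.19 to 3.64), Psme1 at 434 CPM (353 to 365) and the erythroid marker sum, which rests on 1 gene, at 7.47 CPM (1.09 to 1.77).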

How the results depend on the processing

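Against 18 h, the 171 higher and 384 lower genes came to 343 and 556 with DESeq2, 102 and 253 with only the groups compared in the fit, 111 and 364 without the 2 shallowest libraries, and 74 and 231 with the replicate block. Leaving out 1 library gave 45 to 346 higher and 196 to 461 lower genes. Against untreated, the 250 higher and 83 lower genes came to 481 and 209 with DESeq2, 394 and 144 with only the groups compared, and 46 and 14 with the replicate block. Leaving out 1 library gave 86 to 440 higher and 27 to 177 lower genes. The cause of these shifts was not tested. Without the 2 shallowest libraries, the calls against 18 h of H19, Aspn, Jun, Nr3c1, Igf1, Col14a1, Col6a1, Col6a2, Nid1, Col4a5, Lox, Timp1, Pcolce2, Fkbp9, Scara5, Pdgfrb, Cfb, Ccnd1, Fabp4, Scd1 and Hp were lost (adjusted p 0.058 to 0.169). DESeq2 size factors, limma-voom, a minimum count of 20 and no filter kept each of the 4 counts within 1.5 times. Libraries with the same number did not deviate together (correlations of -0.066, 0.066 and -0.074 for the 3 pairs), so the number is not taken as a pairing. Over the named genes and all alternatives, 1926 values kept direction and side of the threshold, 219 kept direction but missed it, 4 newly passed it and 0 reversed. With 3 libraries at 18 h and 1 shallow library in each group, low genes such as Fgf10 cannot be compared.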
